A study of Rattus norvegicus with 158 samples.

Results

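Thigh muscle from rats given Famotidine was compared with thigh muscle from rats given only its vehicle, CMC (carboxymethylcellulose, a thickener used to suspend poorly soluble drugs). The series holds 158 arrays from rats dosed with 1 of 21 compounds or with a vehicle, and the comparison used the 6 arrays whose source label names Famotidine and the 12 whose source label names CMC and no compound. All were male Sprague-Dawley rats aged 6 to 8 weeks when purchased, dosed by oral gavage. The Famotidine rats received 1200 mg/kg, with 3 arrays at 3 d and 3 at 5 d, and the CMC controls received no drug, with 7 arrays at 3 d and 5 at 5 d. Of these 7, CMC control 3 d replicate 3 has 3 d in its source label but 5 d in its title. The vehicle was the same in both groups, only 1 dose was given, and only males were used. RNA of all 6 Famotidine arrays was extracted on 1 date, called extraction batch C, while 6 of the 12 controls belonged to batch C and 6 to another date, batch A. A further reference was the 8 other compounds of batch C, in 37 arrays. Spironolactone was given in CMC, and 7 were given in water, each at 1 dose. The 7 were Dexchlorpheniramine, Etidronate, Gabapentin, Losartan, Oxybutynin, Paroxetine and Phenytoin. The Famotidine arrays came from 1 study and the controls from 5 others, with 0 studies in common, so the study and the drug cannot be told apart. Each array has its own number in the labels, which do not say whether each number is a separate animal, and the p-values measure the spread between these arrays.

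Famotidine blocks the histamine H2 receptor, which acid-secreting cells of the stomach use to respond to histamine. That receptor couples to the stimulatory G protein and raises cyclic AMP (cAMP), and it is also found in heart, smooth muscle and immune cells. Skeletal muscle responds to hormones that follow food intake and the time of day. Glucocorticoids and fasting induce a set of genes there that restrain glucose use, growth and protein synthesis, and insulin and feeding oppose them. The muscle at 3 d and 5 d was harvested in the morning on a staggered schedule.

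Skeletal muscle actin Acta1 lay between 14.52 and 14.65 on the log2 scale of the arrays in all 18 samples, and the mean level of 12 fibre markers lay between 13.82 and 13.95 in Famotidine muscle and between 13.83 and 13.94 in CMC controls, which bears out the labelled tissue. Array medians spanned 5.74 to 5.81, correlations between arrays 0.924 to 0.993, and the difference between the 3′ and 5′ Gapdh control probe sets 0.0954 to 0.316. Against the median of the other 17 arrays, 3 arrays held 36 or more genes that were over 3 log2 units higher, and the other 15 held 0 to 7. Famotidine 3 d replicate 2 had 36 such genes, led by those of heart muscle. Famotidine 5 d replicate 3 had 50, led by those of intestinal epithelium, and CMC control 5 d replicate 2 had 119, led by those of lymphoid cells. Cardiac troponin Tnni3 stood at 13.35 in Famotidine 3 d replicate 2, against 5.10 to 5.78 in the other Famotidine arrays and 4.91 to 7.21 in CMC controls. The intestinal gene Lypd8 stood at 10.96 in Famotidine 5 d replicate 3, with 6.57 and 5.55 in Famotidine 3 d replicates 1 and 3 and 3.93 to 4.02 in the remaining Famotidine arrays, against 3.78 to 4.27 in CMC controls. The T cell gene Cd3g lay at 4.78 to 5.09 in Famotidine muscle, and in CMC controls at 10.26 in 5 d replicate 2 and 4.76 to 5.05 elsewhere. The mean level of 16 intestinal epithelium markers, a list chosen after values were seen, was 8.90 in that array and 5.32 and 5.62 in Famotidine 3 d replicates 1 and 3, against 4.15 to 5.00 in CMC controls. Some results are also given without these 3 arrays, but genes of other tissues remain in the Famotidine arrays that are left. Without the 3 arrays, 10 of the 16 intestinal markers were higher at an unadjusted p under 0.05, where 2.94% of all genes were. Famotidine 5 d replicate 1 had 6 genes over 3 log2 units higher, led by Kap and Hao2, genes of kidney. In whole muscle, fewer cells of a type and less RNA per cell cannot be told apart.

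**Figure D1:**
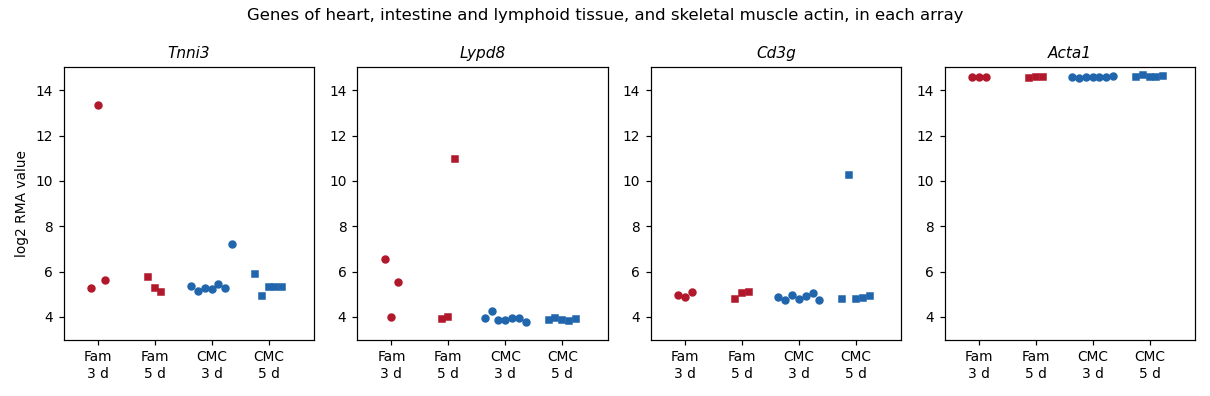
Level of a heart gene (Tnni3), an intestinal gene (Lypd8), a T cell gene (Cd3g) and skeletal muscle actin (Acta1) in each array, as log2 RMA value, with Famotidine in red on the left and CMC controls in blue on the right, circles for 3 d and squares for 5 d. One array each stands far above the rest for Tnni3 (13.35), Lypd8 (10.96) and Cd3g (10.26), while Acta1 lies between 14.52 and 14.65 everywhere.

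Few genes separated Famotidine muscle from CMC controls beyond the spread of the arrays. The test was limma, which fits a linear model to each gene and shares the spread across genes, with time as a covariate. Calls required a fold of at least 1.5 and an adjusted p (Benjamini-Hochberg) no higher than 0.01. Of 14217 genes tested, 1 was called higher (0.00703%), the kinase gene Pim3, and 0 were called lower (0%). At an adjusted p of 0.05 and the same fold, 6 genes were higher (0.0422%) and 0 lower. At an unadjusted p under 0.05, 624 genes were higher (4.39%) and 312 lower (2.19%). All 6 Famotidine arrays lay above all 12 controls for 12 genes (0.0844%) and below all of them for 1 gene (0.00703%). The 12 were Pim3, Prkab1, Noct, Klf9, Gpr146, Bcar1, Defb1, Jam3, Mcf2l, Pnpla1, Ppp1r13b and Prom1, and the single lower gene was Ebf2. The last 7 of the 12 and Ebf2 were named after their values were seen. The median difference over all genes was 0.00359. Differences, also those in brackets after a gene, are on the log2 scale and are Famotidine minus CMC controls unless another comparison is named.

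Pim3, a serine/threonine kinase of the Pim family that promotes cell survival and growth, showed the clearest rise. It lies on chromosome 7 at chr7:121822076-121836257 of the rat build GRCr8. Its level was 8.39, 9.25 and 8.35 in Famotidine muscle at 3 d and 8.25, 8.33 and 8.56 at 5 d, against 6.87 to 7.61 with a median of 7.38 in the 12 CMC controls. Every Famotidine array was above every control, and 1 of them, the array with heart genes, was above the other 5. The mean was 8.52 ± 0.37 in Famotidine muscle (SD, n = 6) and 7.34 ± 0.23 in CMC controls (SD, n = 12). The difference with time in the model was 1.17 on the log2 scale (SE 0.14, limma adjusted p = 0.00115). Within extraction batch C alone it was 1.06 with a limma adjusted p of 0.102, and with batch as a block in the model the adjusted p was 0.022. Without the 3 arrays that carry genes of another tissue it was 0.96 (limma adjusted p = 0.00585).

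Prkab1 encodes the β1 subunit that holds together AMP-activated protein kinase, the sensor of low cellular energy. It passed the same adjusted p but not the fold, and was named after its values were seen. Famotidine muscle had 9.76, 9.96 and 9.91 at 3 d and 9.77, 9.67 and 10.02 at 5 d, against 9.20 to 9.48 with a median of 9.28 in CMC controls. The groups did not overlap and both were tight, with SDs of 0.13 and 0.10. The difference was 0.53 (SE 0.06, limma adjusted p = 0.00115). It was 0.50 with extraction batch as a block, where the adjusted p was 0.022.

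A further 5 genes passed an adjusted p of 0.05 with a fold of 1.5, all higher. Adora2a, the adenosine A2a receptor, which raises cAMP, had 6.30, 7.02 and 6.68 at 3 d and 6.56, 6.46 and 6.09 at 5 d in Famotidine muscle, against 5.57 to 6.13 in CMC controls. The highest control lay above the lowest Famotidine array and below the other 5. The difference was 0.68 (SE 0.11, limma adjusted p = 0.0185), and a further probe set gave 0.31. Noct, or nocturnin, a phosphatase of NADPH whose level follows the clock and feeding, had 9.07, 9.10 and 9.42 at 3 d and 8.98, 8.81 and 10.22 at 5 d, against 6.80 to 8.30 in CMC controls. The groups were fully apart, by 1.40 on average (SE 0.22, limma adjusted p = 0.0185).

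Fmo2, a flavin monooxygenase that oxidises nitrogen- and sulfur-containing drugs, had 7.00, 8.00 and 6.63 at 3 d and 7.17, 8.00 and 7.92 at 5 d, while 11 of the 12 CMC controls lay between 5.15 and 5.78. The remaining control, 5 d replicate 5, stood at 7.60, inside the Famotidine range. The difference was 1.72 (SE 0.28, limma adjusted p = 0.0235), and it was 1.36 without the 3 arrays that carry genes of another tissue, where the adjusted p was 0.239. Further probe sets of Fmo2 gave 0.81 and 1.06. Tmem252, which encodes a membrane protein, had 8.30, 7.97 and 7.82 at 3 d and 7.00, 7.83 and 9.48 at 5 d, against 5.52 to 7.56 in CMC controls. The same control was the highest, and the difference was 1.78 (SE 0.30, limma adjusted p = 0.0284). Without that control 6 genes were called in place of 1, and without Famotidine 5 d replicate 3 there were 3, while leaving out CMC control 5 d replicate 2 or Famotidine 5 d replicate 1 gave 2. Cyp1a1, a cytochrome P450 and the classical target of the aryl hydrocarbon receptor, had 6.01, 6.81 and 6.12 at 3 d and 5.74, 6.23 and 5.45 at 5 d, against 4.59 to 5.49 in CMC controls. Only the lowest Famotidine array overlapped the controls, and the difference was 1.07 (SE 0.18, limma adjusted p = 0.0284).

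**Figure D2:**
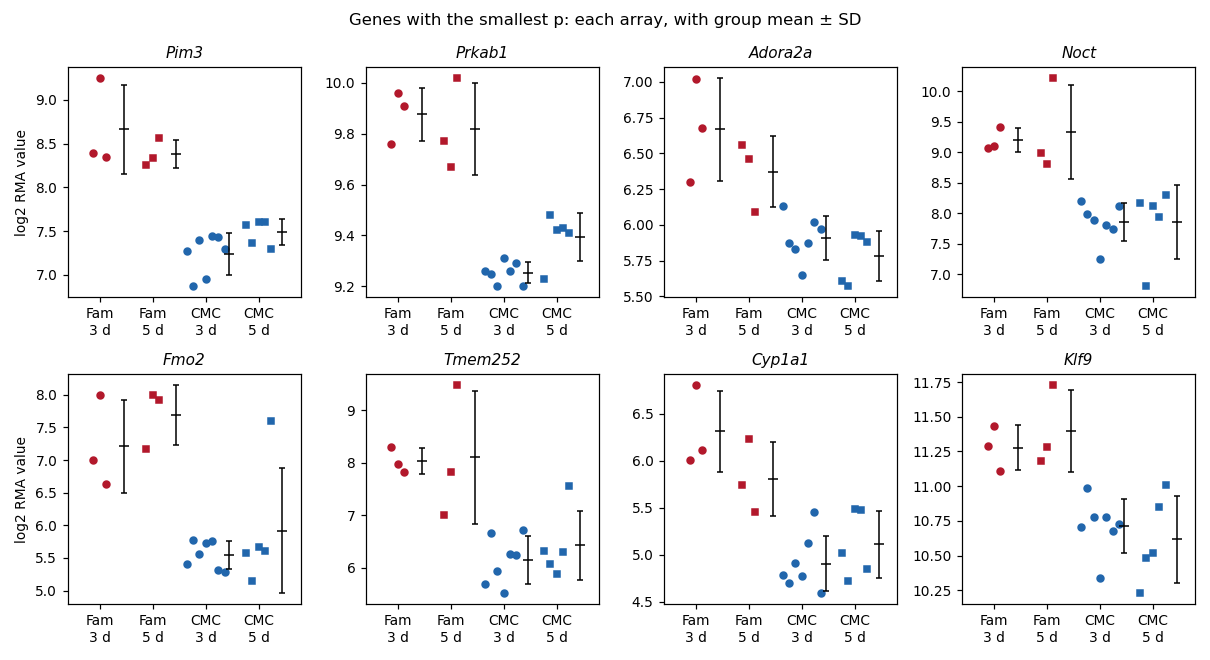
Log2 RMA value of 8 genes with small p in each Famotidine array (red) and each CMC control array (blue) at 3 d (circles) and 5 d (squares), with the mean ± SD of each group of 3, 3, 7 and 5 arrays. Famotidine arrays lie above all controls for Pim3, Prkab1, Noct and Klf9, while 1 control at 5 d reaches 7.60 for Fmo2 and 7.56 for Tmem252.

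The genes that followed by p value, with a fold of 1.5 or more, were higher but were not called. Klf9, a zinc-finger repressor induced by glucocorticoids, had 11.29, 11.43 and 11.11 at 3 d and 11.18, 11.28 and 11.73 at 5 d in Famotidine muscle, against 10.23 to 11.01 in CMC controls. Its difference of 0.66 had an SE of 0.12 and a limma adjusted p of 0.0508. Of its further probe sets, 1 gave 0.49 and 1 gave 0.06. Gpr146, a G protein-coupled receptor, differed by 0.76 and also kept its groups apart, although the array with heart genes stood at 9.33 and the other 5 between 8.16 and 8.45. Others in this tier were Mical2 (0.61), a monooxygenase acting on actin, Flvcr1 (0.97), a carrier named for heme export, Map3k6 (0.69), a stress-activated kinase, and Acer2 (0.81), a ceramidase. They also included Cyp4b1 (0.69), a cytochrome P450, Arrdc2 (2.11), an arrestin-domain protein, and Cebpb (1.06), a leucine-zipper transcription factor that responds to glucocorticoids and cAMP. Their limma adjusted p values lay between 0.0652 and 0.107. Further probe sets gave 0.26, 0.45 and -0.07 for Mical2, and 0.13 and 0.95 for Acer2.

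Arrdc2 and Cebpb were high in the same control as Fmo2 and Tmem252. Arrdc2 had 9.64, 9.50 and 9.08 at 3 d and 8.24, 10.13 and 10.80 at 5 d in Famotidine muscle, against 6.29 to 8.22 in 11 CMC controls and 9.67 in CMC control 5 d replicate 5. Cebpb had 11.09, 10.78 and 11.22 at 3 d and 10.79, 11.04 and 10.83 at 5 d, against 9.19 to 10.38 in 11 CMC controls and 11.09 in that array. In both genes the overlap of the groups came from that 1 control.

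Among genes with a lower level, none was called, and the 15 with the smallest p and a fold of 1.5 had limma adjusted p values from 0.108 upward. The largest difference was that of Rbp4, the plasma carrier of retinol, which fat cells also make. It had 5.64, 4.69 and 6.18 at 3 d and 4.96, 5.31 and 5.76 at 5 d in Famotidine muscle, against 5.70 to 9.88 with a median of 7.69 in CMC controls. The groups overlapped at their edge, and the difference was -2.07 (SE 0.48, limma adjusted p = 0.166). S100b, a calcium-binding protein of Schwann cells that fat cells also express, differed by -1.54. Myod1, the master regulator of muscle differentiation, had 8.84, 7.32 and 8.73 at 3 d and 7.74, 7.77 and 6.77 at 5 d, against 8.02 to 9.69 in CMC controls, a difference of -0.90 (SE 0.24, limma adjusted p = 0.266). Trib2, a pseudokinase, differed by -0.92, and its lowest values were 7.70 in Famotidine 5 d replicate 3 and 8.10 in CMC control 5 d replicate 5. Tnfaip3, which restrains inflammatory signalling through NF-κB, differed by -0.88, and Ier3, a stress-induced regulator of the same pathway, by -0.83. Of the 15, 3 concern the extracellular matrix. These were Aspn (-0.89), a small matrix proteoglycan, Itga11 (-0.73), a collagen receptor subunit, and Adamts5 (-0.68), an aggrecan-cleaving protease. The others were Armcx2 (-0.62), Csad (-0.72), an enzyme of taurine synthesis, Meox2 (-0.73), a homeobox factor, Marcks (-0.67), an actin-binding kinase substrate, Mex3b (-0.60), an RNA-binding protein, and Usf3 (-0.60). Further probe sets gave -0.94 to -0.03 for Marcks and -0.01 for Usf3.

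Of the 35 pathway lists, the glucocorticoid and fasting response had the largest share of higher genes. It holds genes known to be induced by cortisol-like hormones or by loss of insulin. Like the others, the list was chosen with earlier results of these data known, so its share beside that of all genes is a description. All 24 measured members had a difference above 0, and 19 of them passed an unadjusted p under 0.05 as higher and 0 as lower, against 4.39% and 2.19% of all genes. None was called. The median difference of the list was 0.68, beside 0.00359 over all genes. Mt2A, a metallothionein that binds zinc, had 10.18, 9.23 and 9.73 at 3 d and 9.18, 9.06 and 12.18 at 5 d in Famotidine muscle, against 7.70 to 9.16 in CMC controls. Its highest value was in the array with intestinal genes, and the difference of 1.69 had an SE of 0.35 and a limma adjusted p of 0.108. Fkbp5, a co-chaperone that dampens the glucocorticoid receptor, had 7.99, 8.95 and 7.16 at 3 d and 9.25, 9.38 and 10.19 at 5 d, against 6.56 to 8.92 in CMC controls. Its difference was 1.42 (SE 0.37, unadjusted p = 0.00105 from limma).

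Pdk4, which shuts carbohydrate out of the mitochondrion, differed by 1.27 (SE 0.51). It had 11.50, 13.17 and 11.57 at 3 d and 13.03, 12.43 and 11.66 at 5 d in Famotidine muscle, against 8.81 to 13.08 in CMC controls, so the groups overlapped widely. Ddit4, an inhibitor of mTOR signalling, differed by 1.56 (SE 0.71), with 6.75 in Famotidine 5 d replicate 1 and 8.84 to 11.17 in the other 5, against 6.27 to 9.96 in CMC controls. Gadd45g (1.09), Cdkn1a (0.77), Arrdc3 (0.70), Cebpd (0.60), Sgk1 (0.57), Klf15 (0.48) and Tsc22d3 (0.27), which include 2 growth-arrest genes, a kinase and transcription factors, were among the others with an unadjusted p under 0.05. The 5 members without it were Errfi1, Pik3r1, Irs2, Tat and Angptl4. The mean level of the 24 genes lay between 8.48 and 9.44 in Famotidine muscle and between 7.85 and 8.79 in CMC controls, where CMC control 5 d replicate 5 was the highest and the next was 8.42. Within extraction batch C, 14 members were higher and 0 lower at an unadjusted p under 0.05, with a median of 0.66, where 3.24% of all genes were higher. Without the 3 arrays with genes of another tissue, 12 were higher and 0 lower, with a median of 0.575, where 2.94% of all genes were higher. Set against the 8 other compounds of its extraction batch, the median was 0.19 and 2 members were higher, where 7.24% of all genes were.

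**Figure D3:**
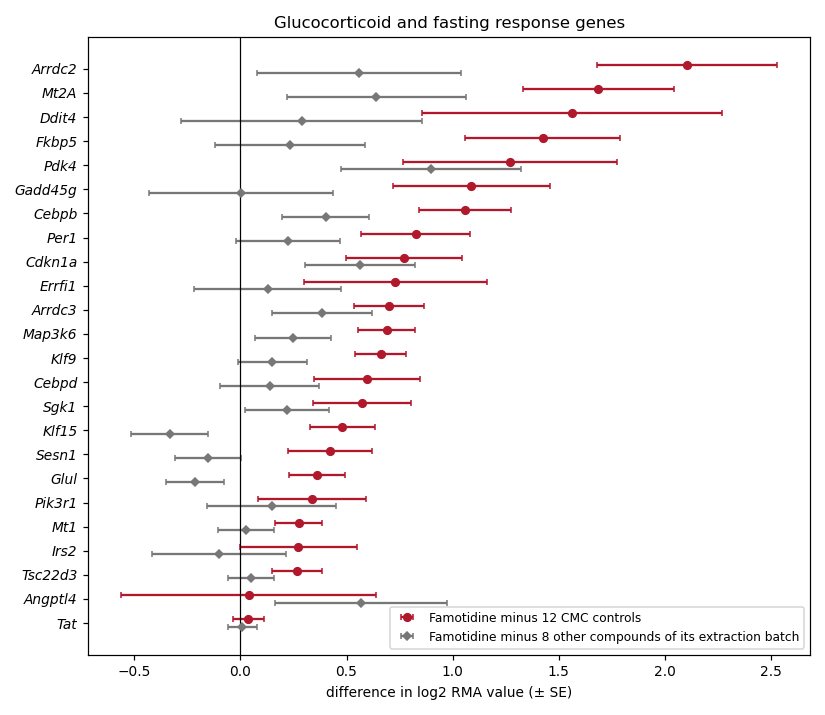
Difference in log2 RMA value (± SE) for each of the 24 glucocorticoid and fasting response genes, as Famotidine minus the 12 CMC controls (red circles) and Famotidine minus 8 other compounds of its extraction batch (grey diamonds). The red points all lie above 0 with a median of 0.68, and the grey points have a median of 0.19. The list was chosen with earlier results of these data known.

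The promoters of Pim3, Klf9 and Cebpb are shown because Pim3 had the clearest rise and Klf9 and Cebpb belong to the glucocorticoid and fasting list. The cAMP motif was searched because the receptor that Famotidine blocks raises cAMP, and a part of cAMP in these rises was not tested. Each is the 250 bases before the transcription start that RefSeq gives on build GRCr8, on the plus strand: chr7:121832795-121833044 for Pim3, which lies inside the wider gene span given above, chr1:230126396-230126645 for Klf9 and chr3:176816755-176817004 for Cebpb. Capitals mark TGACG on either strand (CGTCA when read on the shown strand), the core of the cAMP response element, and the TATA box TATAAA.
Pim3: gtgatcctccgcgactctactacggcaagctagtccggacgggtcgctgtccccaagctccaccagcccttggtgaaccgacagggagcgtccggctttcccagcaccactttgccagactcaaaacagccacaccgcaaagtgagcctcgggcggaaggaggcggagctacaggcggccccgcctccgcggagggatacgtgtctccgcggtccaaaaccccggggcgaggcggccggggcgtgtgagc
Klf9: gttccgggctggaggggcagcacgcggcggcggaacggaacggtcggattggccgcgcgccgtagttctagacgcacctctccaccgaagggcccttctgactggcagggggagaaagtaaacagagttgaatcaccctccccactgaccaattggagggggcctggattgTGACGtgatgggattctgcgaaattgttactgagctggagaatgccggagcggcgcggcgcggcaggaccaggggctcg
Cebpb: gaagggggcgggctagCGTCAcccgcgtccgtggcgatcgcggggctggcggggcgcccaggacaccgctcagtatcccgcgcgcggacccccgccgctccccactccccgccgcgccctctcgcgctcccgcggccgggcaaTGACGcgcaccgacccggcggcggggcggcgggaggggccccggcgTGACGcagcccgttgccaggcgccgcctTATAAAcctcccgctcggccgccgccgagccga
Klf9 held 1 TGACG, 79 bases before the start. Cebpb held 3, at 234, 107 and 61 bases before the start, and a TATAAA at 33, while Pim3 held none of the motifs searched. Over 33469 RefSeq promoters of this length, 18.2% held TGACG and 12.9% held TATAAA on either strand. The full element TGACGTCA, which contains TGACG, was in 1.59% of them, the E-box CACGTG in 5.59% and the palindromic glucocorticoid response element in 0.012%. Of the glucocorticoid and fasting genes, 22 of 24 matched a promoter, and 7 of these held TGACG, 7 TATAAA, 3 CACGTG and 0 either of the other motifs. A match here is a description of letters in the window.

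For the list counts from here on against CMC controls at both times combined, the share of all genes was 4.39% higher and 2.19% lower. The circadian clock list, which holds the feedback loop of Bmal1, Per and Nr1d genes, had 6 of 17 members higher at an unadjusted p under 0.05 and 0 lower, with a median of 0.11. Those 6 were the repressors Per1 (0.83), Per3 (0.40), Nr1d1 (0.50), Nr1d2 (0.32), Bhlhe40 (0.55) and Bhlhe41 (0.56). Per1 had 8.25, 7.97 and 8.52 at 3 d and 6.93, 7.72 and 8.44 at 5 d in Famotidine muscle, against 6.45 to 7.93 in CMC controls. The activator Bmal1 differed by -0.31 (unadjusted p = 0.117 from limma). Against the other compounds of the batch, 1 clock gene was higher and 3 were lower, where 7.24% of all genes were higher and 9.02% lower.

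Of 26 genes of the cAMP and CREB pathway, the route by which the H2 receptor signals, 6 were higher and 0 lower at an unadjusted p under 0.05, with a median of 0.04. Nr4a3, an orphan nuclear receptor induced by cAMP and by exercise, had 9.38, 10.36 and 10.72 at 3 d and 8.02, 7.85 and 11.50 at 5 d in Famotidine muscle, against 4.55 to 9.35 in CMC controls. Its difference was 3.04 (SE 0.69, limma adjusted p = 0.141), and the groups overlapped because both varied by more than 3 log2 units. Further probe sets of Nr4a3 gave 2.05 and -0.22. The others were Nr4a1 (0.62), the phosphodiesterases Pde4b (0.59) and Pde4d (0.52), which degrade cAMP, the kinase Sik1 (0.59) and the CREB-family factor Crem (0.42). Immediate early genes, which cells switch on within minutes of a stimulus, ran in both directions, with 4 of 26 higher and 6 lower at an unadjusted p under 0.05 and a median of -0.21. Nr4a3, Nr4a1, Maff (0.71) and Fosl2 (0.25) were the 4 higher genes, and Fos (-1.61), Egr1 (-1.10), Ier3 (-0.83), Klf2 (-0.82) and Klf4 (-0.48) were among the lower.

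Genes of xenobiotic metabolism, which modify foreign compounds for removal, had 7 of 22 members higher and 1 lower at an unadjusted p under 0.05, with a median of 0.14. After Fmo2, Cyp1a1 and Cyp4b1 came Cyp3a9 (1.39), another P450, Tiparp (0.71), which like Cyp1a1 is a target of the aryl hydrocarbon receptor, Sult1a1 (0.54), a sulfotransferase, and Nqo1 (0.32), a quinone reductase. The lower gene was the carboxylesterase Ces1d (-1.05). Of 17 genes of metal ion handling, 4 were higher and 0 lower. They included Slc39a14, a zinc and manganese importer, with 8.87, 8.88 and 8.85 at 3 d and 8.22, 8.28 and 9.96 at 5 d in Famotidine muscle, against 7.42 to 8.29 in CMC controls. Its difference was 0.87 (SE 0.19, limma adjusted p = 0.126), and the highest of the 6 was again the array with intestinal genes. A further probe set of Slc39a14 gave 0.39.

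Of 16 atrophy and FoxO genes, 4 were higher and 0 lower at an unadjusted p under 0.05. They were the transcription factors Foxo3 (0.63) and Foxo1 (0.50), the translation repressor Eif4ebp1 (0.39) and the ubiquitin ligase component Fbxo31 (0.29). Further probe sets gave 0.11 and 0.06 for Foxo3, and -0.14 and 0.18 for Foxo1. The muscle ubiquitin ligase Trim63, a standard marker of atrophy, differed by 0.23 (unadjusted p = 0.174 from limma). Fatty acid oxidation genes had 30 of 31 differences above 0 and a median of 0.29, with 4 higher and 0 lower at an unadjusted p under 0.05. These were Ppard (0.47), a lipid-sensing nuclear receptor, Ehhadh (0.43), Pdk4 and Ucp3 (0.85), a mitochondrial carrier. Lpin1, which makes diacylglycerol and is induced by fasting, had 10.53, 10.14 and 10.25 at 3 d and 10.94, 10.52 and 11.05 at 5 d in Famotidine muscle, against 9.20 to 10.35 in CMC controls. It differed by 0.71 (SE 0.16, limma adjusted p = 0.141).

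Cell cycle genes, by number, were the list with most lower members at both times combined. Of 32, 8 were lower and 0 higher at an unadjusted p under 0.05, with a median of -0.16. They were Cdc20 (-0.36), Ube2c (-0.30), Cdkn3 (-0.49), Kif20a (-0.30), Top2a (-0.38), Ccna2 (-0.46), Ccnb2 (-0.36) and Mki67 (-0.36), which act in DNA replication and mitosis. Further probe sets of Cdc20 gave -0.02 to 0.06. Without the 3 arrays with genes of another tissue 2 were lower, where 167 of all 14217 genes were. Against the other compounds of the batch 19 were higher, where 7.24% of all genes were, and with them 9 of 11 macrophage markers and 7 of 10 mast cell markers. The part of those cells in that result was not tested. Of 20 lipogenesis genes, 5 were lower and 1, Lpin1, higher, and without the 3 arrays 1 was lower. The lower ones were Fasn (-1.25), Scd (-1.54), Thrsp (-1.58), Acaca (-0.45) and Pnpla3 (-0.43), which make or shape fatty acids. Fat cell markers moved with them. Of 10, 3 were lower at an unadjusted p under 0.05 and 0 higher, namely Adipoq (-1.90), Cfd (-1.48) and Plin1 (-1.41). The mean level of fat cell markers lay between 7.57 and 8.30 in Famotidine muscle and between 7.75 and 10.2 in CMC controls, highest in the control with lymphoid genes. Their part in the lipogenesis result was not tested.

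**Figure D4:**
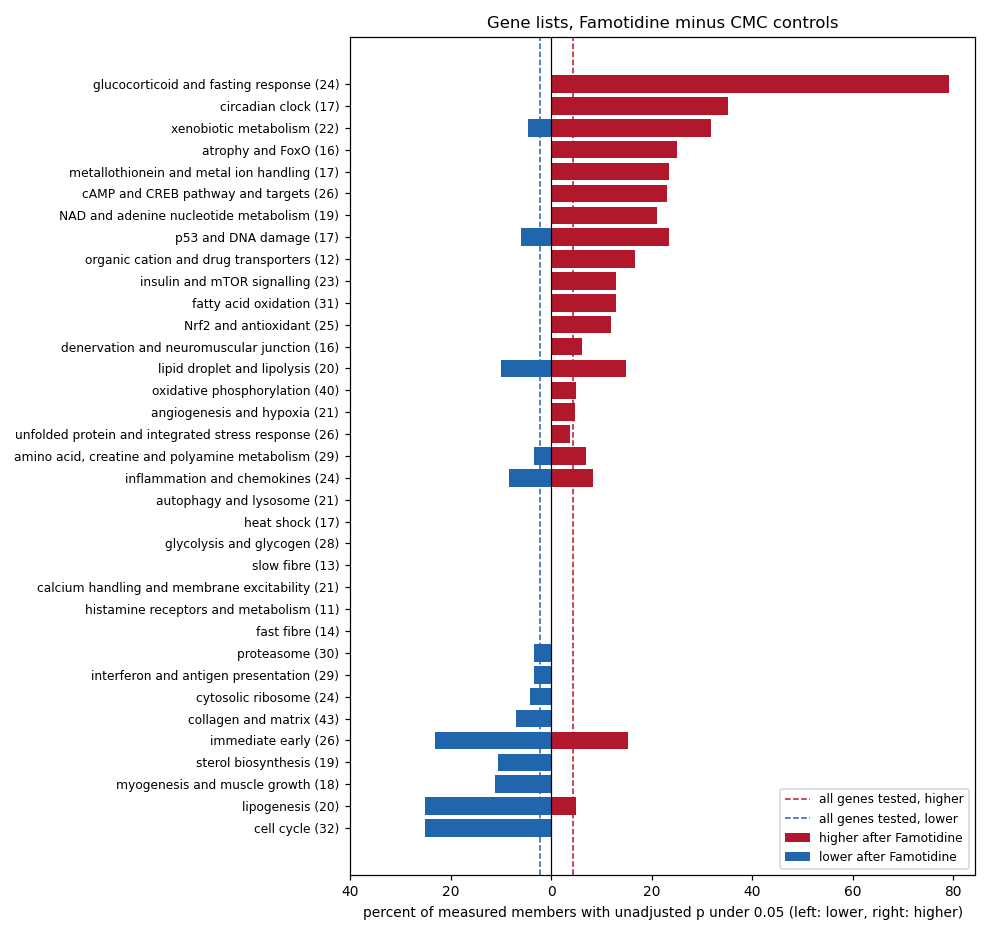
Percent of the measured members of each of 35 gene lists (number in brackets) with an unadjusted p under 0.05, higher to the right in red and lower to the left in blue, with dashed lines at the 4.39% and 2.19% of all 14217 genes. The glucocorticoid and fasting list reaches 79.2% higher, and cell cycle and lipogenesis each reach 25% lower, which is 8 and 5 genes with all arrays, against 2 and 1 without the 3 arrays that carry genes of another tissue. The lists were chosen with earlier results of these data known.

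Histamine receptors and the enzymes and carriers that handle histamine were measured as the drug's own system. None of the 11 genes was higher or lower at an unadjusted p under 0.05 in the probe set used for it, and their median was 0.10. Hrh2, the receptor that Famotidine blocks, lay between 4.23 and 4.32 in Famotidine muscle and between 3.99 and 4.41 in CMC controls, near the low end of the array's scale, which ran from 3.06 to 14.66. The difference was 0.11 (SE 0.07). Hrh1 differed by 0.09 (SE 0.08), Hrh3 by 0.18 (SE 0.09) and Hrh4 by 0.13 (SE 0.07). Further probe sets gave -0.02 and -0.08 for Hrh1 and -0.06 for Hrh3. Hdc, which makes histamine, differed by 0.18 (SE 0.12), and Hnmt, which methylates it, by 0.01 (SE 0.06) in a probe set that lay between 3.32 and 3.58 on all arrays. A second Hnmt probe set differed by 0.28 (SE 0.10, unadjusted p = 0.0111 from limma). Aoc1, which oxidises histamine, differed by 0.54 (SE 0.34), with 7.32 in the array with intestinal genes and at most 4.58 in the other 5 Famotidine arrays. Mast cell markers, whose cells store histamine, had 0 of 10 members past that p. Without the 3 arrays that carry genes of another tissue, 1 histamine gene was higher, Hdc (0.29, unadjusted p = 0.0287 from limma). There 2 of 10 mast cell markers, which include Hdc, were higher, where 2.94% of all genes were. Against the other compounds of the batch 2 histamine genes were higher and 0 lower, where 7.24% of all genes were higher.

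Slow-fibre genes, which distinguish red from white muscle, had 0 of 13 members past an unadjusted p of 0.05 although their median was 0.62. Their mean level ran from 9.00 to 12.45 in Famotidine muscle and from 6.98 to 12.28 in CMC controls, and the 5 lowest controls were all of batch A. In batch C alone the controls ran from 10.71 to 12.28 and the median difference was -0.34. Fast-fibre genes lay within 13.93 to 14.05 in Famotidine muscle and 13.50 to 14.05 in CMC controls, with a median difference of 0.000414. Of 18 myogenesis and growth genes, Myod1 and Igf1 (-0.51), a growth factor, were lower at an unadjusted p under 0.05 and 0 were higher. No member of the glycolysis, heat shock, autophagy, or calcium handling lists passed that p.

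At 3 d alone, 2 genes were called higher (0.0141%), Pim3 with a difference of 1.43 (SE 0.18, limma adjusted p = 0.00419) and Prkab1 with 0.62 (SE 0.08, limma adjusted p = 0.00819). At an unadjusted p under 0.05, 413 genes were higher (2.9%) and 187 lower (1.32%). At 5 d alone 0 genes were called with limma, and the smallest adjusted p was 0.21, while 596 were higher (4.19%) and 537 lower (3.78%) at an unadjusted p under 0.05. Pim3 differed by 0.89 (SE 0.19) and Prkab1 by 0.43 (SE 0.09) at 5 d. The effects at 5 d and 3 d were compared in 1 model, and 0 genes differed between them with limma, with a smallest adjusted p of 0.436. At an unadjusted p under 0.05 the effect was larger at 5 d for 345 genes (2.43%) and smaller for 397 (2.79%). Leaving out the 3 arrays with genes of another tissue gave 18 calls at 3 d among 14217 genes, 17 higher and 1 lower. Of the 2 main calls, 1 was among them. The Famotidine arrays then left at 3 d were replicates 1 and 3. Their mean levels of intestinal markers were 5.32 and 5.62, against 4.15 to 5.00 in CMC controls. Leaving out Famotidine 3 d replicate 1 or 2, or CMC control 3 d replicate 1, 4 or 7, gave 0 calls at 3 d. At 5 d the count was 5 without Famotidine 5 d replicate 2 and 1 without CMC control 5 d replicate 5.

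Chd7, a chromatin remodeller, had the smallest p of that comparison. Its level was 8.15, 8.20 and 8.29 at 3 d and 8.82, 8.80 and 8.64 at 5 d in Famotidine muscle, against 8.22 to 8.51 at 3 d and 8.13 to 8.37 at 5 d in CMC controls. The effect was 0.69 larger at 5 d (SE 0.12, limma adjusted p = 0.436). The glucocorticoid and fasting list had a median of 0.85 at 3 d and 0.47 at 5 d, and 16 of its 24 members had the larger difference at 3 d.

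The collagen and matrix list, genes of the fibrous scaffold around muscle fibres, is given at each time, and the difference between the times was not tested for the list. At 5 d, 25 of 43 members were lower at an unadjusted p under 0.05 and 0 higher, with a median of -0.56, against 3.78% and 4.19% of all genes. At 3 d, 0 passed in either direction and the median was 0.13. With both times in 1 fit, 3 were lower and 0 higher, with a median of -0.21. The same fit without the 3 arrays that carry genes of another tissue gave 1 lower and 0 higher, with a median of -0.05. The list counts at 5 d are given with all arrays only. Over all genes, 1133 had an unadjusted p under 0.05 at 5 d, and 421 without the 3 arrays. Serpinh1, the collagen chaperone, averaged 10.66 in Famotidine muscle and 11.55 in CMC controls at 5 d, a difference of -0.89 (SE 0.23, limma adjusted p = 0.434). Bgn, the proteoglycan biglycan, differed by -0.82 (SE 0.22), Loxl2, which cross-links collagen, by -1.02 (SE 0.32), and Fn1, fibronectin, by -0.94 (SE 0.33) at 5 d. Fibroblast markers were lower with them at 5 d in 4 of 7 members. Their mean level at 3 d ran from 10.07 to 10.73 in Famotidine muscle and from 9.89 to 10.69 in CMC controls. At 5 d it was 9.85, 9.63 and 9.71 in Famotidine muscle, against 9.97, 10.87, 10.21, 10.55 and 10.15 in CMC controls. The value of 10.87 was in the control with lymphoid genes and that of 9.71 in the array with intestinal genes. The part of fibroblast number in the matrix result was not tested.

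Spironolactone, a blocker of the mineralocorticoid receptor given at 300 mg/kg, was the other drug of this extraction batch given in CMC. One of its arrays was extracted on a further date. Against its 6 arrays 0 genes were called with limma. At an unadjusted p under 0.05, 826 genes were higher in Famotidine muscle (5.81%) and 1419 lower (9.98%), and 1 gene, the protein disulfide isomerase Pdia3, reached an adjusted p of 0.05. Pdia3 averaged 10.01 in Famotidine muscle and 9.41 in Spironolactone muscle, a difference of 0.60 (limma adjusted p = 0.0305). It was named after its value was seen. Pim3 differed from Spironolactone by 0.73 (SE 0.20, limma adjusted p = 0.137), Cyp1a1 by 0.87 (SE 0.21, limma adjusted p = 0.123) and Cebpb by 1.05 (SE 0.26). The collagen and matrix list was higher in Famotidine muscle than in Spironolactone muscle for 25 of 43 members at an unadjusted p under 0.05, and lower for 0. In the same comparison 5 of 7 fibroblast markers and 10 of 11 macrophage markers were higher, with median differences of 0.615 and 0.649, and their part in the matrix result was not tested.

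The 8 other compounds of extraction batch C, in 37 arrays, were given in water for 7 compounds and in CMC for Spironolactone. Against the mean of these compounds 1 gene was called higher (0.00703%), Alox15, a lipoxygenase, and 1 lower (0.00703%), LOC102552020. At an unadjusted p under 0.05, 1030 genes were higher (7.24%) and 1283 lower (9.02%). Alox15 was 0.66 higher than in the other compounds (SE 0.11, limma adjusted p = 0.00242), while Famotidine muscle and CMC controls both averaged between 5.88 and 5.93. LOC102552020 was lower by 0.85 (SE 0.12, limma adjusted p = 0.0005), and its level was 6.48 in Famotidine muscle and 6.63 in CMC controls. For both genes, Famotidine and CMC muscle were close while the other compounds stood apart. The count was 10 without Famotidine 5 d replicate 2, 4 without Famotidine 5 d replicate 1, 1 without Famotidine 3 d replicate 2, and 0 without both Famotidine arrays that carry genes of another tissue.

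The genes that led against CMC controls stood closer to these compounds. Pim3 differed from their mean by 0.29 (SE 0.24, limma adjusted p = 0.596). Its mean of 8.52 in Famotidine muscle lay above 6 of the 8 compounds, which ran from 7.49 to 9.23, with Etidronate and Losartan above it. Prkab1 averaged 9.85 in Famotidine muscle, above all 8 compounds, which ran from 9.36 to 9.80. Adora2a, Noct, Cyp1a1 and Gpr146 also averaged above all 8. The mean and the next compound were 6.52 and 6.39 for Adora2a, 9.27 and 9.18 for Noct, 6.06 and 5.93 for Cyp1a1, and 8.46 and 8.42 for Gpr146. The highest Famotidine array was the one with intestinal genes for Prkab1 and Noct. It was the one with heart genes for Adora2a, Cyp1a1 and Gpr146. The ranks without those arrays were not tested. The median of the 6 Famotidine arrays was 9.09 for Noct and 8.31 for Gpr146, below the mean of the next compound. It was 9.84 for Prkab1, 6.51 for Adora2a and 6.07 for Cyp1a1, above that mean. By their means, Fmo2 and Nr4a3 lay above 7 of 8, Klf9, Cebpb, Mt2A and Tmem252 above 6, and Arrdc2 above 5. These 13 genes were chosen for this ranking after their values against CMC controls were seen.

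**Figure D5:**
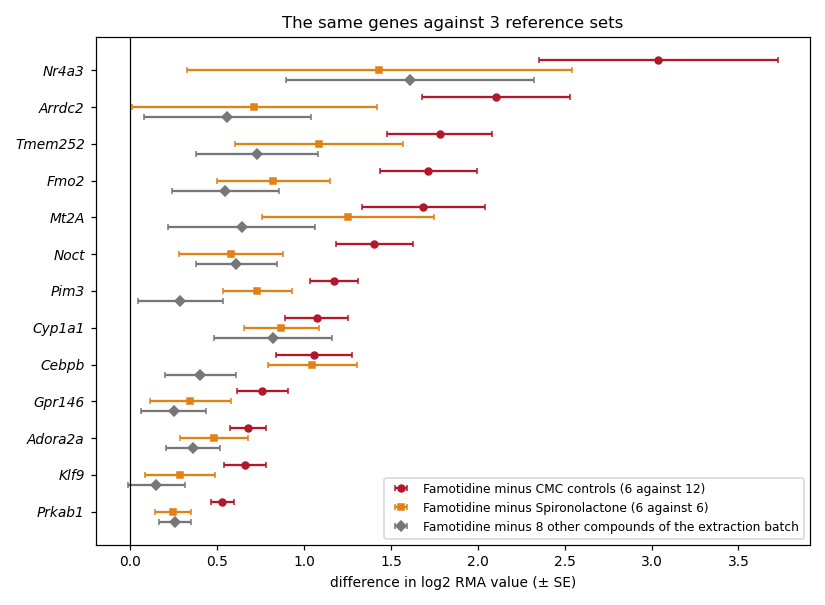
Difference in log2 RMA value (± SE) of 13 genes as Famotidine minus 12 CMC controls (red circles), minus 6 Spironolactone arrays (orange squares) and minus 8 other compounds of the extraction batch (grey diamonds). Pim3 differs by 1.17, 0.73 and 0.29 in that order, and all points of the 13 genes lie above 0.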

How the data were processed

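The arrays were Affymetrix whole-genome rat arrays hybridised with poly(A) RNA of thigh muscle. The authors deposited log2 values of 31099 probe sets after RMA, per the submitters' processing notes, while the study's methods name frozen RMA, and the version is not given in the sources used here. Array number limits the precision. The 57 control probe sets were left out. Of the rest, 20826 had 1 gene symbol, 436 had several and 9780 were unnamed here, and the probe set with the highest mean stood for each of 14217 genes, of which 14167 matched the RefSeq gene table of build GRCr8. No per-sample column was left unmapped (0). Values were fitted with limma 3.58.1 in R 4.3.3 (lmFit and eBayes), with time as a covariate, and p-values were adjusted by Benjamini-Hochberg over all genes. Calls needed an adjusted p of 0.01 and a fold of 1.5. The limma fit was tested on simulated data.

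The control with 2 times in its labels, CMC control 3 d replicate 3, was grouped as 3 d. Genes named were the called ones, filled to 15 in each direction with those of fold 1.5 and smallest p, all histamine genes, the members of each list with the smallest p, the 5 with the smallest p between times, and those called against other compounds. Further list members were named after their values were seen. Members and lists were chosen with earlier results of these data known, and Prkab1 and the heart, intestine and germ cell lists after values were seen. Alternatives covered batch, hybridization date, the samples in the fit, normalization, probe set choice, filters and each array left out.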

Additional observations from a re-analysis of the deposited data

Results flagged for a closer look

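For each of 108 named genes, the highest or lowest array was compared with the nearest of the others within the 6 Famotidine arrays, the CMC controls at 3 d and those at 5 d, which made 324 groups. An array stood apart where its gap to the nearest, divided by the range of the group, passed Dixon's critical value, and this happened 37 times. Chance flags about 1 in 20 groups. Each gene below is given with the level of the array that stood apart, the nearest level and the ratio, and the reason for these gaps was not tested. Most of the Famotidine cases lie in the arrays that carry heart or intestinal genes.

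In Famotidine 3 d replicate 1 the gene was Aspn (8.65, nearest 7.40, 0.683). In Famotidine 3 d replicate 2 the genes were Cdc20 (5.27, nearest 5.49, 0.627), Gpr146 (9.33, nearest 8.45, 0.751), Perp (6.56, nearest 5.25, 0.703), Pim3 (9.25, nearest 8.56, 0.69) and Pln (12.73, nearest 6.52, 0.972). In Famotidine 5 d replicate 1 the genes were Gclc (8.55, nearest 6.77, 0.698) and Myh4 (13.48, nearest 13.76, 0.693). In Famotidine 5 d replicate 3 the genes were Abcg2 (5.96, nearest 4.85, 0.702), Aoc1 (7.32, nearest 4.58, 0.837), Eif4ebp1 (9.87, nearest 9.53, 0.842), Idi1 (7.16, nearest 6.62, 0.658) and Mt2A (12.18, nearest 10.18, 0.639).

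CMC control 3 d replicate 2 stood apart from the controls of its time for Pfkl (5.78, nearest 6.26, 0.57). CMC control 3 d replicate 3 stood apart from the controls of its time for Hnmt (3.32, nearest 3.47, 0.574). CMC control 3 d replicate 4 stood apart from the controls of its time for Atp1b1 (7.04, nearest 9.57, 0.6) and Eif4ebp1 (9.74, nearest 9.27, 0.622). CMC control 3 d replicate 5 stood apart from the controls of its time for Slc18a2 (5.86, nearest 5.40, 0.82). CMC control 3 d replicate 7 stood apart from the controls of its time for Ebp (6.11, nearest 6.46, 0.572), Foxo1 (7.97, nearest 7.56, 0.704), Hrh1 (4.43, nearest 4.68, 0.572), Map3k6 (6.23, nearest 5.70, 0.704), Mt2A (9.16, nearest 8.39, 0.602), Pln (7.99, nearest 6.37, 0.788) and Tnfaip3 (6.81, nearest 7.89, 0.729). CMC control 5 d replicate 1 stood apart from the controls of its time for Prkab1 (9.23, nearest 9.41, 0.74). CMC control 5 d replicate 2 stood apart from the controls of its time for Noct (6.80, nearest 7.93, 0.757), Rpl14 (12.12, nearest 11.41, 0.88) and Slc22a3 (7.43, nearest 5.39, 0.727). CMC control 5 d replicate 3 stood apart from the controls of its time for Slc22a8 (5.70, nearest 5.36, 0.815). CMC control 5 d replicate 4 stood apart from the controls of its time for Maob (7.35, nearest 6.16, 0.836). CMC control 5 d replicate 5 stood apart from the controls of its time for Arg2 (5.56, nearest 5.14, 0.786), Cdc20 (6.18, nearest 5.79, 0.747), Fmo2 (7.60, nearest 5.67, 0.792), Pnpla2 (9.44, nearest 9.70, 0.723), Tmem252 (7.56, nearest 6.32, 0.74) and Trib2 (8.10, nearest 9.64, 0.794).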

How the results depend on the processing

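The 1 call of Famotidine against CMC controls, Pim3, was lost with extraction batch as a block, within batch C, and without the 3 arrays of other tissues with batch as a block (0 calls each). There were 2 calls among genes above the median level or with no fold minimum, 3 without the array of the later hybridization period, 6 at an adjusted p of 0.05, 24 with all arrays and batch in the fit, 30 with all arrays, and 69 with hybridization date as a fixed block. Only Famotidine 3 d replicate 2, the array with heart genes, shared a hybridization date with controls, so the last fit rests on that array and 2 controls. The cause of the other changes was not tested. Leaving out 1 array at a time gave 1 to 6 calls. At 3 d, in place of 2, the count was 0 with batch as a block, 1 within batch C (neither Pim3 nor Prkab1), 1 with the control that has 2 times in its labels taken as 5 d, 1 above the median level and 18 without the 3 arrays, and 0 to 2 with 1 array left out. At 5 d leaving out 1 array gave 0 to 5. The comparison of effects at 5 d and 3 d gave 1 call within batch C and 4 without the 3 arrays, in place of 0. Against the other compounds of the batch, the count, in place of 2, was 1 above the median level (neither Alox15 nor LOC102552020), 0 without the 2 Famotidine arrays of other tissues, and 1 to 10 with 1 array left out. Against Spironolactone every alternative run gave 0 calls. The settings that leave out the arrays of other tissues were chosen after seeing the data. No paired analysis was possible because replicate numbers follow only the order of deposit.

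Over the named genes and all their alternatives, 4182 values kept their direction and side of the threshold, 45 moved past it, 3, all of Pim3, no longer passed, and 49 changed sign. With batch as a block and within batch C, the log2 differences that changed sign were Alox15 -0.029, LOC102552020 0.31, Sln -0.10 and Zfp954 0.028. With hybridization date as a fixed block they were Adm -0.18, Angpt2 -0.57, Arg2 -0.058, Chd7 -0.037, Hdc -0.29, Hnmt -0.080, Ier3 0.66, Lix1l 0.31, Pfkfb3 -0.23 and Sln -0.45. Without the 3 arrays they were 6430548M08Rikl -0.014, Dnajb4 -0.082 and Tpm1 -0.000415. With batch as a block as well they were 6430548M08Rikl -0.068, Casq2 -0.24, Dnajb4 -0.084, Hrh3 -0.045, LOC102552020 0.17, Ncam1 -0.045, Pdia6 0.000901, Pln -0.062, Slc18a2 -0.022 and Zfp954 0.023. With all arrays and batch in the fit, Hnmt was -0.000621 and LOC102552020 0.079. Hnmt was also -0.0035 without the array of the later hybridization period, -0.0029 without the control with 2 times, -0.013 after quantile normalization, -0.0065 after median centring and -0.0046 with the Gapdh difference as a covariate. With the probe set of largest variance, Tpm1 was -0.26 and Ulk1 -0.028. With 1 array left out, 6430548M08Rikl ran from -0.16 to 0.28, Aldh2 from -0.068 to 0.20, Alox15 from -0.10 to 0.17, Dnajb4 from -0.0058 to 0.31, Hnmt from -0.0097 to 0.034 and Zfp954 from -0.15 to 0.023. Values near the low end of the scale, such as those of Hrh2 and Hnmt, limit what a small difference can show.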

Other observations

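Genes of germ cells were also seen in some Famotidine arrays. The sperm protamine Prm1 had 8.22, 4.16 and 5.64 at 3 d and 4.13, 6.09 and 6.08 at 5 d in Famotidine muscle, against 3.90 to 4.91 in CMC controls. It was named after its values were seen.

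With all 158 arrays in the fit, which share 1 estimate of the spread, 29 genes were called higher in Famotidine muscle and 1, Trib2, lower. Of these 30, 20 were also called with extraction batch in the fit and 27 had an unadjusted p under 0.05 from limma without the 3 arrays that carry genes of another tissue. Among the 6 Famotidine arrays, 27 of the 30 were highest in the array with heart genes or the one with intestinal genes, and the 30 include the heart gene Ryr2, whose unadjusted p without the 3 arrays was 0.303.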
